A study of Mus musculus with 7 samples.

Results

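The genes described here make and shape mitochondria. They are the 10 regulators of mitochondrial biogenesis, fusion and fission *Ppargc1a*, *Ppargc1b*, *Esrra*, *Esrrg*, *Nrf1*, *Tfam*, *Mfn1*, *Mfn2*, *Opa1* and *Dnm1l*. They were taken by name from a count table of mouse left ventricle, in which each had 1 entry. All 10 were among the 13894 genes tested, of 20927 genes in all.

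The study asked which transcripts differ between hearts with normal titin and hearts in which titin, the giant spring protein of the sarcomere, carries the A178D change near its Z-disc end. Poly(A) RNA of left ventricles was sequenced from 3 WT mice, numbered 1, 3 and 4, and from 4 mice homozygous for A178D, numbered 1 to 4. Both groups are labelled C57BL/6J. Total counts were 51797208, 54245530 and 41102868 in WT and 40623300, 52345529, 42174448 and 33080675 in A178D. The allele was made by genome editing of JM8F6 embryonic stem cells, which are C57BL/6N, and was then crossed onto C57BL/6J over several generations before WT and homozygous littermates were bred. The labels give neither the age nor the sex of these mice, nor the time of day at which hearts were taken.

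PGC-1 coactivators, encoded by *Ppargc1a* and *Ppargc1b*, bind transcription factors such as the estrogen-related receptors and nuclear respiratory factor 1, and so raise expression of nuclear genes for oxidative metabolism. Among the targets is *Tfam*, whose product packages mitochondrial DNA and starts its transcription. Mitofusins and Opa1 fuse the outer and inner membranes, and the dynamin-related protein encoded by *Dnm1l* divides the organelle, in a tissue that is among the richest in mitochondria.

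The tissue label was checked against markers of ventricular muscle. The summed level of 8 ventricular cardiomyocyte genes, led by *Myh6*, was 82700, 88423 and 86209 CPM in WT and 82201, 83026, 81489 and 90575 CPM in A178D. CPM values here are counts brought to a common library size by TMM. Of 5 atrial genes, *Bmp10* was at 0 in every library, and *Nppa*, which ventricles also express under load, made up most of the sum.

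A single library stood apart from the others before any comparison. Counts in A178D replicate 4 drifted most with the length and the GC content of transcripts. The fitted trend had a standard deviation over genes of 0.138 on the log2 scale there, and WT replicate 1 followed with 0.072. The other 5 libraries lay between 0.014 and 0.055. In A178D replicate 4 this trend amounted to -0.25 for *Ppargc1a*, -0.21 for *Opa1*, -0.19 for *Esrrg* and -0.14 for *Dnm1l*. This library had the lowest level of all 7 for 6 of the 10 members and the highest for *Esrra*. Fold changes of named members and list genes that turned or moved by over 1.5 times without this library are therefore given with and without it.

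None of the 10 members was called different between the genotypes by edgeR's quasi-likelihood test at a Benjamini-Hochberg adjusted p under 0.05, where 2.35% of all tested genes were called. An unadjusted p under 0.05 was found for 3 members, *Ppargc1a*, *Tfam* and *Mfn2*, where 16.7% of all genes had one. The same 3 members had no overlap between the WT and the A178D hearts, where 16.1% of all genes had none. DESeq2 called 1 member, *Ppargc1a*, with 4.94% of all genes called. Limma-voom called 0 members, where its share of all genes was close to the 2.35% of edgeR. Log2 fold changes, given as A178D over WT, were above 0 for 4 members and below 0 for 6, of which *Mfn1* and *Opa1* changed sign with the length and GC trends removed and *Ppargc1b* without A178D replicate 4. Their median was -0.026, and that of all tested genes was 0.002.

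**Figure D1:**
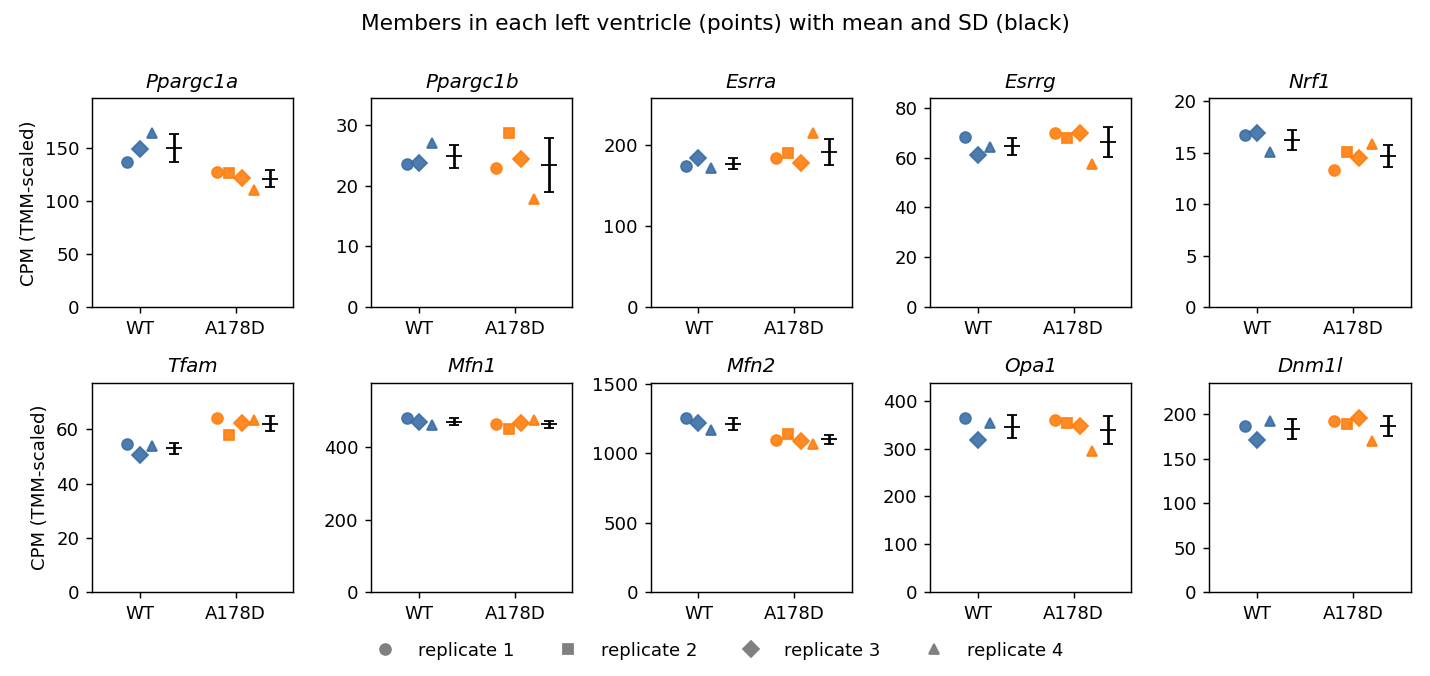
Level of each of the 10 genes in CPM (vertical axes, each from 0) in 3 WT (blue) and 4 A178D (orange) left ventricles, with the mean and SD of each genotype in black and the replicate number by symbol. WT and A178D points do not overlap for Ppargc1a, Tfam and Mfn2, and A178D replicate 4 lies lowest of all hearts for 6 genes.

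*Ppargc1a* (ENSMUSG00000029167, chromosome 5 from 51454250 to 51567726, GRCm38) encodes PGC-1alpha, the inducible coactivator of this pathway. Its level was 137, 149 and 164 CPM in the WT hearts and 127, 126, 122 and 110 CPM in the A178D hearts. The highest A178D value was under the lowest WT value. The means were 150 ± 13.3 CPM (SD, n = 3) and 121 ± 7.86 CPM (SD, n = 4), a log2 fold change of -0.31 with a standard error of 0.08. The adjusted p of 0.0611 from edgeR did not pass the threshold, and that of DESeq2 was 0.0123, within a range of 0.00907 to 0.238 over all alternatives. Without A178D replicate 4 the log2 fold change was -0.26 (edgeR adjusted p = 0.0728), and with the length and GC trends removed it was -0.23 (edgeR adjusted p = 0.073). Without WT replicate 1 it was -0.36, and *Ppargc1a* was then called (edgeR adjusted p = 0.0269). RNA of whole tissue cannot tell fewer cells of a type from less RNA per cell.

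The related coactivator gene *Ppargc1b* had 23.6, 23.7 and 27.0 CPM in WT and 22.8, 28.6, 24.4 and 17.8 CPM in A178D. The A178D values spanned the whole WT range, with the highest and the lowest heart of all both in A178D. Its log2 fold change of -0.08 had the widest standard error of the members, 0.13, and it was 0.03 without A178D replicate 4, -0.19 without A178D replicate 2 and -0.01 with WT replicate 4 left out. Within each heart the ratio of *Ppargc1a* to *Ppargc1b* counts was 5.81, 6.29 and 6.07 in WT and 5.58, 4.38, 5 and 6.18 in A178D. The mean log2 ratio differed by -0.21, A178D minus WT, which an exact two-sided permutation test over the 7 hearts did not separate from 0 (p = 0.2, adjusted over 4 ratios 0.381). This test cannot give a p below 0.0286. The difference was -0.12 without A178D replicate 2, and also -0.12 with the length and GC trends removed.

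*Esrra* and *Esrrg* encode the orphan receptors ERRalpha and ERRgamma, through which PGC-1 proteins reach many genes of oxidative phosphorylation and fatty acid oxidation. *Esrra* averaged 176 ± 6.50 CPM (SD, n = 3) in WT and 191 ± 16.3 CPM (SD, n = 4) in A178D, a log2 fold change of 0.11 (standard error 0.08, edgeR adjusted p = 0.496). A178D replicate 4 had the highest level of all hearts, 214 CPM. Without it the log2 fold change of *Esrra* was 0.05, and with the length and GC trends removed it was 0.07. Exons of *Esrra* share 73 bases with *Trmt112* on the opposite strand. *Esrrg* had 68.1, 61.1 and 64.3 CPM in WT and 69.7, 67.8, 69.8 and 57.3 CPM in A178D. In 3 of the A178D hearts it was close to or above the highest WT heart, and A178D replicate 4 was the lowest of all. The log2 fold change of *Esrrg* was 0.04 (standard error 0.08, edgeR adjusted p = 0.866). It was 0.10 without A178D replicate 4, 0.09 with the trends removed and 0.0008 without WT replicate 3. The ratio of *Esrrg* to *Esrra* counts was 0.268 in A178D replicate 4 and between 0.333 and 0.396 in the other 6 hearts. The mean log2 ratio differed by -0.08 between genotypes (exact permutation p = 0.83), and by 0.05 in the opposite direction without that heart.

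*Nrf1*, the gene of nuclear respiratory factor 1, had the lowest level per kilobase of the members. It averaged 16.2 ± 0.978 CPM (SD, n = 3) in WT and 14.7 ± 1.03 CPM (SD, n = 4) in A178D. The genotypes overlapped, and the log2 fold change was -0.14 (standard error 0.10, edgeR adjusted p = 0.488). Its lowest count in any library was 510.

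*Tfam* (ENSMUSG00000003923, chromosome 10 from 71225464 to 71238280) had 54.6, 50.6 and 53.8 CPM in WT and 64.2, 58.1, 62.4 and 63.5 CPM in A178D. The lowest A178D value was over the highest WT value, the opposite order to that of *Ppargc1a*. The means were 53.0 ± 2.13 CPM (SD, n = 3) and 62.1 ± 2.75 CPM (SD, n = 4), which gave a log2 fold change of 0.23 (standard error 0.07). Its edgeR adjusted p of 0.119 did not pass, nor did that of any alternative, with a range of 0.0524 to 0.352. The fold change was 0.22 without A178D replicate 4 and 0.25 with the trends removed. The table lists 13 genes of mitochondrial DNA itself, all at 0 in every library, so transcripts made with the help of Tfam were not measured.

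The mitofusin genes *Mfn1* and *Mfn2* act in outer membrane fusion, and *Mfn2* also takes part in contacts with the sarcoplasmic reticulum. *Mfn2* (ENSMUSG00000029020, chromosome 4 from 147873599 to 147904704) had 1252, 1216 and 1163 CPM in WT and 1097, 1140, 1090 and 1065 CPM in A178D. The genotypes did not overlap, with the lowest WT and the highest A178D heart close together. The means of 1211 ± 44.7 CPM (SD, n = 3) and 1098 ± 31.3 CPM (SD, n = 4) gave a log2 fold change of -0.14 with a standard error of 0.06 (edgeR adjusted p = 0.269). *Mfn1* averaged 470 ± 10 CPM (SD, n = 3) in WT and 463 ± 10.5 CPM (SD, n = 4) in A178D. Its log2 fold change of -0.02 had an approximate 95% interval of -0.14 to 0.10, and turned to 0.01 with the length and GC trends removed. The ratio of *Mfn2* to *Mfn1* counts was 2.61, 2.59 and 2.53 in WT and 2.37, 2.54, 2.34 and 2.25 in A178D. A178D replicate 2 lay within the WT range, and the mean log2 ratio differed by -0.12, A178D minus WT (exact permutation p = 0.0857, adjusted over 4 ratios 0.343).

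*Opa1*, the dynamin of inner membrane fusion and cristae shape, averaged 346 ± 23.8 CPM (SD, n = 3) in WT and 339 ± 29.6 CPM (SD, n = 4) in A178D. The fission dynamin gene *Dnm1l* averaged 184 ± 11 CPM (SD, n = 3) and 187 ± 12 CPM (SD, n = 4). Both ranges overlapped widely. The log2 fold change was -0.03 for *Opa1* (standard error 0.08) and 0.02 for *Dnm1l* (standard error 0.07), with edgeR adjusted p of 0.898 and 0.913. *Opa1* turned to 0.03 without A178D replicate 4 and to 0.04 with the trends removed, and *Dnm1l* was 0.07 without that heart and turned to -0.02 without WT replicate 3. The ratio of *Opa1* to *Dnm1l* counts lay between 1.84 and 1.94 in WT and between 1.74 and 1.87 in A178D hearts, and its mean log2 value differed by -0.05 (exact permutation p = 0.286, adjusted over 4 ratios 0.381), or by -0.03 without WT replicate 1 and by -0.01 with the trends removed.

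Levels of different genes were compared as CPM per kilobase of exonic sequence, averaged over the 7 hearts. *Mfn2* led with 221 CPM per kilobase, followed by *Mfn1* with 76.2, *Opa1* with 43.4, *Esrra* with 42.0 and *Dnm1l* with 35.7. *Ppargc1a* came next with 20.3 CPM per kilobase, then *Tfam* with 13.1, *Esrrg* with 10.5, *Ppargc1b* with 6.01 and *Nrf1* with 1.49. Fusion genes thus took the first 3 places and coactivators lay in the lower part. *Opa1* and *Esrra* were the only neighbours in this order whose ranges over the hearts overlapped. Per kilobase of the longest transcript *Esrra* was at 74.1 CPM, above *Opa1* at 54.9, so their order depends on the length used.

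Other regulators of biogenesis formed a list of 24 genes, all tested. By edgeR 0 rose, where 1.04% of all genes did, and 1 fell, where 1.31% of all genes did. An unadjusted p under 0.05 was found for 5 of them, and for 16.7% of all genes. The gene that fell was *Ppara*, the fatty acid receptor that PGC-1alpha also coactivates. It had 148, 136 and 152 CPM in WT and 105, 117, 115 and 109 CPM in A178D. All A178D hearts lay below all WT hearts, with a log2 fold change of -0.38 (standard error 0.07, edgeR adjusted p = 0.0144). The call was lost without WT replicate 4 (edgeR adjusted p = 0.0772) and without A178D replicate 1 (0.0566). Over all alternatives its adjusted p ran from 8.65e-05 to 0.0772. DESeq2 called 4 of the 24, where it called 4.94% of all genes. They were *Ppara* and 3 others named after their values were seen, *Klf15*, *Sirt1* and *Creb1*, with log2 fold changes of -0.49, -0.31 and -0.35 and edgeR adjusted p of 0.0516, 0.0823 and 0.0937. Of the 3 others, edgeR called *Klf15* with the length and GC trends removed (adjusted p = 0.02), with WT replicate 1 left out (0.0017) and with A178D replicate 4 left out (0.0311), within a range of 4.44e-05 to 0.255 over all alternatives. *Perm1*, a muscle regulator with the highest level per kilobase in the list (147 CPM per kilobase), had a log2 fold change of 0.01, and of -0.02 without A178D replicate 4. The list's median log2 fold change was -0.026, with 7 of 24 genes above 0. With the length and GC trends removed it was -0.014, with 11 above 0, and without both A178D replicate 4 and WT replicate 1 it was -0.012.

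Among 25 genes that transcribe, copy and maintain mitochondrial DNA, edgeR, DESeq2 and limma-voom each called 0, and 5 had an unadjusted p under 0.05 (16.7% of all genes did). The smallest belonged to *Tefm*, the transcription elongation factor, with 21.1, 22.5 and 22.7 CPM in WT and 29.2, 24.2, 24.9 and 28.3 CPM in A178D (log2 fold change 0.27, standard error 0.09, edgeR adjusted p = 0.156). The matrix protease gene *Lonp1* had the highest level per kilobase and a log2 fold change of 0.05, and of 0.01 without A178D replicate 4. The median of this list was 0.029, against 0.002 for all genes, and was 0.053 without A178D replicate 4 and 0.043 with the length and GC trends removed.

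In the list of 15 proteases and partners of fusion, all 3 tools called 0 genes, and 1 gene had an unadjusted p under 0.05, where 16.7% of all genes had one. This was the prohibitin gene *Phb2* (log2 fold change 0.17, edgeR adjusted p = 0.279), whose partner *Phb* had the highest level per kilobase and the same log2 fold change of 0.17. *Phb* was at 234 CPM in A178D replicate 4 and at 187 to 196 CPM in the other A178D hearts. Without that heart the fold changes were 0.11 for *Phb2* and 0.09 for *Phb*, and *Phb* was also at 0.09 with the trends removed. The median of the list was 0.093, and 0.027 with the length and GC trends removed.

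Of 15 fission receptors and partners, 14 were tested, since *Gdap1* had too few counts. Here 1 gene rose and 1 fell, where 1.04% and 1.31% of all genes did. *Akap1*, which anchors protein kinase A to the outer membrane, had 201, 169 and 173 CPM in WT and 254, 228, 236 and 226 CPM in A178D. It rose with a log2 fold change of 0.38 (standard error 0.08, edgeR adjusted p = 0.0207), and all A178D hearts lay above all WT hearts. Leaving out 1 heart at a time kept the call in 3 of 7 fits. The adjusted p of *Akap1* was 0.141 without WT replicate 3, 0.106 without WT replicate 4, 0.084 without A178D replicate 1 and 0.0565 without A178D replicate 3. Over all alternatives it ran from 0.000368 to 0.141. *Inf2*, a formin that builds actin at sites of division, had 36.2, 39.3 and 35.4 CPM in WT and 22.7, 28.0, 28.1 and 31.8 CPM in A178D. It fell with a log2 fold change of -0.42 (standard error 0.10), and its edgeR adjusted p of 0.0499 was just under the threshold. Of the 7 fits with a heart left out, 1 called *Inf2*, that without A178D replicate 4. The adjusted p in the other 6 lay between 0.0694 without WT replicate 1 and 0.22 without WT replicate 3. With DESeq2 size factors in place of TMM it was 0.0506, and over all alternatives it ran from 0.00719 to 0.22. *Mtfp1* had the highest level per kilobase of the list, with a log2 fold change of 0.19 (edgeR adjusted p = 0.176), and of 0.10 with the length and GC trends removed. The median of the list was 0.093.

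Of 13 genes of the MICOS complex and its partners, which hold cristae junctions, 12 had a log2 fold change above 0. This number was 11 without A178D replicate 4, 9 with the length and GC trends removed and 7 without both that library and WT replicate 1. All 3 tools called 0 of them, and 4 had an unadjusted p under 0.05 (16.7% of all genes did). The smallest was that of 2410015M20Rik, also known as *Micos13* (log2 fold change 0.24, edgeR adjusted p = 0.159, and 0.11 with the trends removed). *Chchd10* had the highest level per kilobase. Its log2 fold change was 0.08, and -0.06 without A178D replicate 4. The median of the list was 0.090, beside 0.002 for all genes. It was 0.080 with the trends removed, 0.064 without A178D replicate 4 and 0.008 without both libraries.

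Among 17 genes of mitophagy, the removal of damaged mitochondria, all 3 tools called 0, and 0 had an unadjusted p under 0.05, against 16.7% of all genes. The kinase gene *Pink1* came closest, with 1042, 1080 and 1067 CPM in WT and 897, 936, 958 and 1053 CPM in A178D. A178D replicate 4 was the only A178D heart within the WT range. Its log2 fold change was -0.15 (edgeR adjusted p = 0.302). With the trends removed it was -0.20 and called (edgeR adjusted p = 0.048), as it was without both A178D replicate 4 and WT replicate 1 (-0.21, edgeR adjusted p = 0.0496, range over all alternatives 0.048 to 0.548). *Nipsnap2* had the highest level per kilobase, with a log2 fold change of -0.12. The list's median was -0.026, and 0.007 without A178D replicate 4. For 6 genes of transport along microtubules, all 3 tools called 0 and 1 gene, the adaptor *Trak1*, had an unadjusted p under 0.05 (log2 fold change -0.16, edgeR adjusted p = 0.227), again beside 16.7% of all genes. *Rhot2*, which encodes an anchor for such adaptors, had the highest level per kilobase of these and a log2 fold change of -0.06, and of -0.10 without A178D replicate 4. Their median was -0.034.

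The last list held 17 enzymes and carriers known as targets of PGC-1 and ERR proteins. EdgeR called 0 of them, and 7 of the 17 had an unadjusted p under 0.05, where 16.7% of all genes had one. The smallest was that of the uncoupling protein gene *Ucp3*, with 62.3, 51.2 and 129 CPM in WT and 156, 165, 152 and 119 CPM in A178D. WT replicate 4 lay above the lowest A178D heart. The log2 fold change was 0.88 (standard error 0.24, edgeR adjusted p = 0.0717), and without WT replicate 4 it was 1.39 and called (edgeR adjusted p = 0.00215). Without WT replicate 3 it was 0.63 (edgeR adjusted p = 0.257), and these are the ends of the range over all alternatives. With no filter on low counts *Ucp3* was called (edgeR adjusted p = 0.0239). Limma-voom called *Ucp3* alone of the 17, where its share of all genes was close to the 2.35% of edgeR. DESeq2, with 4.94% of all genes called, called 2 of the 17, *Ogdh* (log2 fold change -0.20) and *Ckmt2* (0.27), which lie in opposite directions and were named after their values were seen. EdgeR called *Ogdh* with the length and GC trends removed (adjusted p = 0.0354, range over all alternatives 0.0338 to 0.315). *Fabp3*, the heart fatty acid binding protein gene, had the highest level per kilobase of the list and a log2 fold change of 0.26 (edgeR adjusted p = 0.123), and of 0.12 with the length and GC trends removed (edgeR adjusted p = 0.462). The median of the list was 0.067, and 0.007 with these trends removed.

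**Figure D2:**
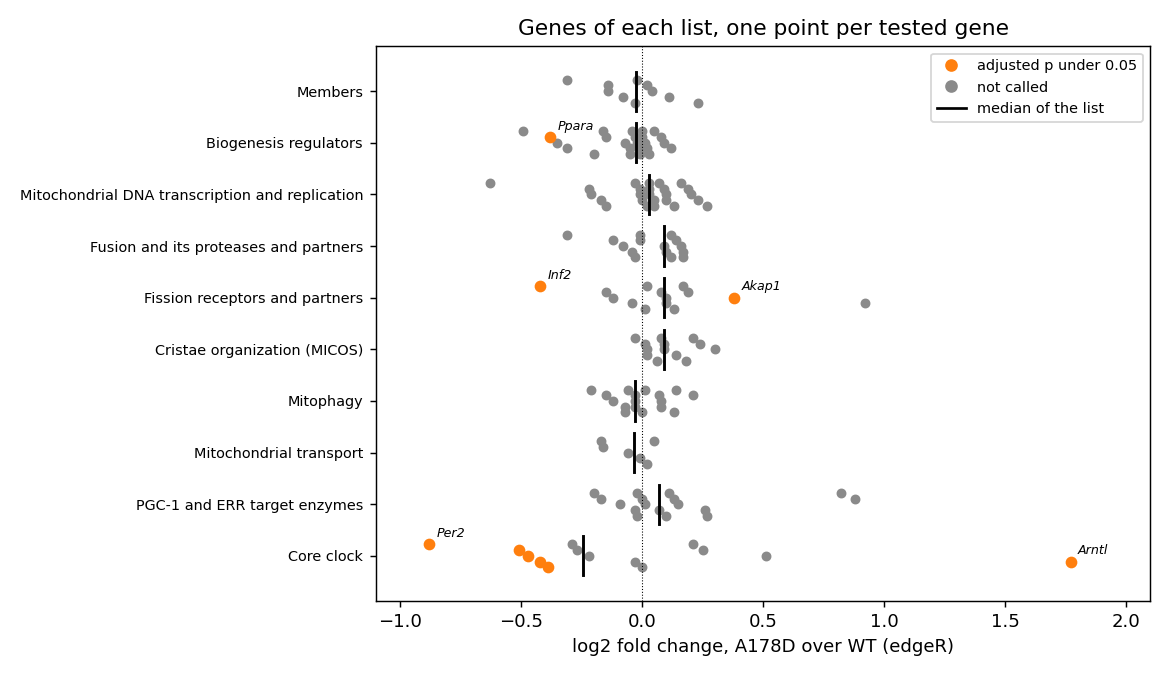
Log2 fold change, A178D over WT, of each tested gene (points, horizontal axis) in the 10 members and in each list (vertical axis), with genes at an edgeR adjusted p under 0.05 in orange and the median of each list as a black bar. None of the members is orange, Ppara, Inf2 and Akap1 are the orange points of the mitochondrial lists, and the clock list has 6.

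Other transcripts moved with the genotype beside these genes. Of 14 core clock genes, 1 rose and 5 fell, where 1.04% and 1.31% of all genes did. An unadjusted p under 0.05 was found for 9 of them (16.7% of all genes). DESeq2 called 8 (4.94% of all genes), with *Nr1d1* and *Nr1d2* beside these 6. Limma-voom called 6, where its share of all genes was close to the 2.35% of edgeR. *Arntl*, the gene of Bmal1, rose with a log2 fold change of 1.77 (standard error 0.31, edgeR adjusted p = 0.0115). The genes that fell were *Per2* (-0.88), *Cry1* (-0.51), *Per3* (-0.47), *Hlf* (-0.42) and *Tef* (-0.39). Without WT replicate 3 edgeR called 0 of these 6, with adjusted p from 0.0525 for *Per2* to 0.187 for *Cry1*, and without WT replicate 4 it called *Per2* alone. Without A178D replicate 1 it called *Arntl* and *Per2*, and without A178D replicate 3 it called all but *Cry1* (adjusted p = 0.0899). Of the 327 genes called with all hearts, 52 were called again without WT replicate 3 and 75 without WT replicate 4. Without A178D replicate 1 this number was 90, and without A178D replicate 3 it was 179. *Nr1d1* had the highest level per kilobase of the clock list and a log2 fold change of 0.51 (edgeR adjusted p = 0.0717), and was called without WT replicate 1 (0.77, edgeR adjusted p = 0.000207). *Nr1d2* (-0.29, edgeR adjusted p = 0.0647) was called without WT replicate 1 (0.033) and with the length and GC trends removed (0.0423). *Clock* (0.25, edgeR adjusted p = 0.382) was called with these trends removed (0.36, edgeR adjusted p = 0.0381) and without A178D replicate 4 (0.37, 0.0452), while without A178D replicate 1 it was 0.15. The median of the clock list was -0.248. Its part in the values of *Ppargc1a*, *Ppara* and *Tfam* was not tested.

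Markers of other cells in the ventricle moved as well. All 8 smooth muscle and pericyte genes had log2 fold changes below 0, and 4 of them, *Cnn1* (-0.82), *Myh11* (-0.67), *Tagln* (-0.62) and *Acta2* (-0.59), fell, where 1.31% of all genes did. An unadjusted p under 0.05 was found for 6 of them, and DESeq2 called 6, with *Rgs5* (-0.33) and *Pdgfrb* (-0.33) beside these 4. EdgeR did not call *Rgs5* and *Pdgfrb* (adjusted p = 0.0653 and 0.0863), but did with the length and GC trends removed (0.0159 and 0.0459). It also called *Rgs5* without A178D replicate 4 (0.0495) and *Pdgfrb* without WT replicate 4 (0.0493), and their adjusted p without WT replicate 3 was 0.211 and 0.325. The summed level of the 8 genes, led by *Abcc9*, was 1327, 1358 and 1332 CPM in WT and 1035, 1124, 1194 and 948 CPM in A178D. *Abcc9* averaged 599 CPM in WT and 542 CPM in A178D (-0.15, and -0.05 without A178D replicate 4). *Kcnj8* was at -0.09, at -0.16 without A178D replicate 4 and at -0.0049 without WT replicate 3. Both genes were uncalled (edgeR adjusted p = 0.513 for *Abcc9* and 0.66 for *Kcnj8*). The summed level of 7 fibroblast genes, led by *Dcn*, was 1130, 1161 and 1050 CPM in WT and 1365, 1289, 1236 and 1254 CPM in A178D, and 1 of them, *Col3a1*, rose (0.62), where 1.04% of all genes did. Neither sum overlapped between genotypes. *Col3a1* averaged 201 CPM in WT and 309 CPM in A178D, while *Dcn* averaged 579 and 580 CPM (log2 fold change 0.00). Of the 7 fibroblast genes 6 had log2 fold changes above 0, with a median of 0.187. By edgeR 4 of them had an unadjusted p under 0.05, and DESeq2 called 2. The collagen genes *Col1a1* (0.45) and *Col1a2* (0.26) were not called (edgeR adjusted p = 0.0813 and 0.178), but were with the length and GC trends removed (0.0187 and 0.0441). *Col1a1* was also called without WT replicate 1 (0.0196) and with no filter on low counts (0.0416). Without WT replicate 4 the fold changes were 0.27 for *Col1a1* and 0.14 for *Col1a2*, with edgeR adjusted p of 0.18 and 0.444. *Lum* was at 0.19, and at 0.10 without A178D replicate 1. *Tcf21* (0.04) and *Pdgfra* (-0.06) turned sign without A178D replicate 4. Of 7 endothelial and 7 macrophage genes edgeR called 0, with 0 and 4 at an unadjusted p under 0.05, where 16.7% of all genes had one. DESeq2 called 0 and 2 of these, where it called 4.94% of all genes. Limma-voom called 0 of both, where its share of all genes was close to the 2.35% of edgeR. The macrophage genes called by DESeq2 were *Adgre1* (0.33) and *C1qb* (0.50), with edgeR adjusted p of 0.107 and 0.0787. *C1qb* was at 0.33 without WT replicate 1. Of the 7 macrophage genes 6 had log2 fold changes above 0, and *Cd163* was below (-0.32, edgeR adjusted p = 0.288). EdgeR called *Cd163* without WT replicate 1 (-0.49, adjusted p = 0.0409) and without both that library and A178D replicate 4 (-0.46, 0.0327). *Cd163* was at -0.16 without WT replicate 3. The endothelial gene *Kdr* (0.08, edgeR adjusted p = 0.775) was called without both WT replicate 1 and A178D replicate 4 (0.30, 0.0127). *Kdr* was at 0.27 without WT replicate 1 alone (edgeR adjusted p = 0.109) and at -0.04 without WT replicate 4. The endothelial and macrophage sums, led by *Cd36* and *Csf1r*, overlapped. Of 6 adipocyte genes *Cidea*, which heart muscle also expresses, was the most abundant and rose (0.43), where 1.04% of all genes did. Of the 4 adipocyte genes tested, 2 had log2 fold changes above 0 and 2 below 0. The adipocyte genes *Adipoq*, *Plin1*, *Cidec*, *Lep* and *Ucp1* stayed under 1 CPM in every library. The adipocyte sum was 33.0, 27.3 and 32.5 CPM in WT and 40.2, 40.5, 42.2 and 41.9 CPM in A178D. The atrial sum was 251, 189 and 111 CPM in WT and 533, 367, 324 and 591 CPM in A178D. Of the other lists, *Nppa* (1.31) rose among 5 atrial genes, of which 2 were tested, and *Mybpc3* (0.30) among the 8 ventricular genes. Of all genes 1.04% rose. Log2 fold changes of the 8 ventricular genes were above 0 for 4 and below 0 for 4, with a median of 0.003. Skeletal muscle genes, led by *Tnni2*, summed to at most 4.57 CPM. Erythrocyte genes, led by *Hbb-bs*, summed to between 93.9 and 154 CPM. Across the alternatives run, *Acta2* and *Tagln* were called in each, while the other 6 marker genes called by edgeR lost their call without WT replicate 3 (edgeR adjusted p from 0.0501 for *Myh11* to 0.115 for *Cidea*). In that fit 52 of the 327 genes called with all hearts were called again. Of the 7 fits with a heart left out, 5 called *Myh11*, 4 called *Nppa*, 3 each called *Mybpc3*, *Col3a1* and *Cidea*, and 1 called *Cnn1*, that without A178D replicate 4. Without WT replicate 4 the adjusted p was 0.0547 for *Myh11*, 0.0598 for *Nppa*, 0.0718 for *Cidea*, 0.106 for *Cnn1* and 0.12 for *Mybpc3*. Without A178D replicate 1 it was 0.0555 for *Nppa*, 0.0557 for *Cidea*, 0.084 for *Col3a1*, 0.0872 for *Mybpc3* and 0.104 for *Cnn1*. Without A178D replicate 3 it was 0.051 for *Mybpc3*, 0.0536 for *Cidea*, 0.0591 for *Cnn1* and 0.0712 for *Col3a1*. *Cnn1* and *Col3a1* also lost their call without A178D replicate 2 (0.0594 and 0.0672) and *Cnn1* without WT replicate 1 (0.109). With the length and GC trends removed *Cidea* lost its call (edgeR adjusted p = 0.0832), and without both WT replicate 1 and A178D replicate 4 *Cnn1* did (0.0792). The part of cell makeup in the members' values was not tested.

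The windows before the gene starts were read for letters that the members might share. RefSeq promoter sequences (GRCm38.p6) were found for 9 members in 16 windows of 250 bases, searched on both strands. *Ppargc1b* had no window. The window of *Ppargc1a* was chr5:51567726-51567975, at the outermost start of the gene, and any start farther inside it was not searched. The core of the NRF1 site, GCATGCGC, was in 2 of the 16 windows, those of *Esrra* and *Opa1*, and in 2.25% of all 32817 windows. The ETS site bound by GABPA, CCGGAAGT, was in 2 of the 16, those of *Tfam* and *Mfn1*, and in 2.88% of all windows. Both motifs contain the pair CG. This pair occurred 22 times in the *Esrra* window, 13 in *Opa1*, 19 in *Tfam* and 10 in *Mfn1*. The median of all windows was 6, and the shares were not adjusted for this. The ERR half-site CAAGGTCA (1.33% of all windows) and the cyclic AMP response element TGACGTCA (1.55%) were in 0 of the 16 windows. A match describes the letters only. The 30 bases around each match are printed to show how near the gene start they lie, with the matched letters in capitals, 5′ to 3′ on the strand of the gene. In *Opa1* the core is matched on both strands in overlap. The first matched base lies 34 bases before the start of *Esrra*, 59 before *Opa1*, 47 before *Tfam* and 44 before *Mfn1*. The stretches are chr19:6921824-6921853 (minus strand), chr16:29579264-29579293 (plus strand), chr10:71238073-71238102 (minus strand) and chr3:32529427-32529456 (plus strand), in the order of the lines that follow.
Esrra: ccccctgttttGCATGCGCaggccggcccc
Opa1: agtggctccccGCGCATGCGCatgtcatcc
Tfam: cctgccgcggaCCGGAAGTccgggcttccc
Mfn1: gatccgaagcgCCGGAAGTagccgccccta
The *Tfam* stretch lies inside the gene as GENCODE draws it, whose start is farther upstream than that of RefSeq. Log2 fold changes of the pairs that share a motif were 0.11 and -0.03 for *Esrra* and *Opa1*, and 0.23 and -0.02 for *Tfam* and *Mfn1*.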

How the data were processed

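RNA of 3 WT and 4 A178D left ventricles was sequenced as stranded poly(A) libraries. The authors deposited raw counts per gene, and a table normalised with DESeq2 that was not used here. The submitters' processing notes name bcl2fastq 2.18.0.12, HISAT2 2.1.0, SAMtools 1.6, DESeq2 1.26.0 and build GRCm38. The counting program and annotation are not given in the sources used here.

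Entries with identical counts (442 in 219 sets, at least 30 counts) were reduced to 1 per set, and none held a member. Another 107 entries with fewer counts were dropped because they repeated both an identifier and its counts. Symbols, positions and lengths came from GENCODE M21, which named all but 268 of 21257 entries. Genes that reached 10 counts in 3 or more libraries were tested with edgeR 4.0.16 (TMM, glmQLFit, glmQLFTest, R 4.3.3), called at a Benjamini-Hochberg adjusted p under 0.05. Alternatives were DESeq2 1.42.0, limma-voom (3.58.1), other filters and scalings, a replicate block, offsets for length and GC content (mgcv 1.9.3) and leaving out each library. Leaving out WT replicate 1 together with A178D replicate 4 was chosen after seeing the data, as was the count of members with an unadjusted p under 0.05. The pipeline was tested on simulated data. Ratios of members used an exact permutation test (SciPy).

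Named are all members, called genes of the lists, and in each list the gene with the most counts per kilobase and, where none was called, that with the smallest p. Genes called only by DESeq2, by limma-voom or with the offsets, and the uncalled fibroblast markers were named after their values were seen. The same holds for *Cd163*, *Kdr*, *Abcc9* and *Kcnj8*. Members and lists were chosen with earlier results of these data known.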

Additional observations from a re-analysis of the deposited data

Results flagged for a closer look

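Among 63 groups of 4 A178D values that were tested, 7 held a heart far from the other 3, where chance alone gives about 1 in 20. The groups come from the same 4 hearts and are not independent, so the number of flags cannot be weighed against chance. Some of these genes were named after their values were seen, and other list genes, such as *Ncor1*, were outside the test. In 4 of them this heart was A178D replicate 4. *Esrrg* was at 57.3 CPM there and between 67.8 and 69.8 CPM in the other A178D hearts. *Lonp1* was at 228 CPM, against 205 to 209 CPM, and *Chchd10* was at 958 CPM, against 662 to 704 CPM. *Rhot2* was at 265 CPM, against 238 to 241 CPM. The other 3 were fibroblast markers. *Col3a1* was at 324 CPM in A178D replicate 2 and between 303 and 306 CPM in the others. In A178D replicate 1 *Dcn* was at 646 CPM, against 555 to 562 CPM, and *Lum* at 101 CPM, against 80.3 to 82.4 CPM. A178D replicate 4 was also the library whose counts drifted most with the length and GC content of transcripts, and the part of this trend in these values was not tested.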

How the results depend on the processing

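EdgeR called 145 genes higher and 182 lower in A178D. DESeq2 called 306 and 380, and the length and GC offsets gave 206 higher and 284 lower, or 200 and 190 together with the replicate block. Leaving out both WT replicate 1 and A178D replicate 4, an alternative chosen after seeing the data, gave 353 and 407. Leaving out single hearts gave 22 to 215 higher and 31 to 238 lower, lowest without WT replicate 3. Called members numbered 0, but 1 (*Ppargc1a*) with DESeq2, with no filter on low counts and without both those libraries, and 0 to 1 without single hearts. Members with an unadjusted p under 0.05 numbered 2 to 3 without single hearts.

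Several fold changes near 0 changed sign. With the length and GC offsets, *Mfn1* was 0.01, *Opa1* 0.04, *Chchd10* -0.02, *Pdgfra* 0.0031 and *Tcf21* -0.03. With no filter *Dcn* was -0.0008. With the offsets and the replicate block *Mfn1*, *Opa1* and *Chchd10* were 0.03, 0.04 and -0.01. Without both libraries *Ppargc1b* was 0.0023, *Opa1* 0.07, *Chchd10* -0.10, *Pdgfra* 0.07, *Dcn* -0.05 and *Tcf21* -0.07. Without single hearts *Ppargc1b* ranged from -0.19 to 0.03, *Opa1* from -0.08 to 0.03, *Dnm1l* from -0.02 to 0.07, *Perm1* from -0.04 to 0.11, *Chchd10* from -0.06 to 0.14, *Pdgfra* from -0.11 to 0.03, *Dcn* from -0.07 to 0.06 and *Tcf21* from -0.02 to 0.14. The log2 ratio of *Esrrg* to *Esrra* differed by 0.03 with the offsets and by -0.14 to 0.05 without single hearts. The cause was not tested. Of 1003 alternative fold changes of 59 named genes, 857 kept direction and side of the threshold, 59 lost a call, 58 gained one and 29 changed sign. *Cd163*, *Kdr*, *Abcc9* and *Kcnj8* were not among these 59 genes. Of the list medians, 11 moved by more than the spread between hearts and 142 did not.

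The labels do not say whether the replicate numbers pair the hearts. Correlations of same-numbered libraries, each taken as deviations from its group mean, were 0.003, -0.04 and -0.042. With so few hearts per group they cannot decide on pairing. With the replicate block 124 genes were higher, 147 lower and 0 members called. WT has no replicate 2, so in this block A178D replicate 2 did not enter the comparison of genotypes. The block removed the calls of *Inf2* (edgeR adjusted p = 0.0634), *Mybpc3* (0.0574) and *Cnn1* (0.0617) and added *Ucp3* (0.0274), *Nr1d1* (0.0175), *Klf15* (0.0348) and *C1qb* (0.0485), and it changed no other call of a named gene. Among the members *Nrf1* had the fewest counts, 510 in 1 library, and the part of depth in the errors was not tested.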
